A study of Mus musculus with 12 samples.

Results

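The 9 genes described here encode proteins that hold neighbouring endothelial cells together: Cdh5 and Pecam1 of adhesion between cells, Cldn5, Ocln and Tjp1 of tight junctions, and F11r, Jam2, Jam3 and Esam of the immunoglobulin-type adhesion proteins at junctions. They were chosen by name, as the Ensembl identifiers that carry these symbols in GENCODE M21, out of 52636 identifiers counted in every library. All 9 were among the 21440 genes that passed a filter on low counts and were tested.

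RNA was sequenced from lung lymphatic endothelial cells (LECs) of Prox1-EGFP mice, a reporter strain in which GFP marks cells that use the regulatory sequence of the lymphatic transcription factor gene Prox1. The mice breathed cigarette smoke (CS) in a whole-body chamber or room air (RA), for 8 weeks (acute) or for at least 24 weeks (chronic), and the controls were matched for age. The age field of the labels reads 8wk for the acute and Aged for the chronic libraries, but in the study's methods 8 weeks is the length of exposure, so 8wk is not taken here as the age of the mice. There were 2 acute RA libraries (F and M), 2 acute CS libraries (F and M), 3 chronic RA libraries (F, M1 and M2) and 5 chronic CS libraries (F, M1, M2, M3 and M4), where F is a female and M a male library.

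Mice of all 4 groups carried the reporter and were injected with labelled isolectin before death. The sort kept live cells that were negative for a blood lineage cocktail and for EpCAM and positive for CD31 and GFP. Pecam1 encodes CD31, so the protein of this member was itself part of the sort. Each acute library pooled cells of several mice and each chronic library did not, so pooling and time point cannot be told apart. In bulk RNA, fewer cells of a type and less RNA per cell cannot be told apart either.

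Adherens junctions of endothelium are built from VE-cadherin, which binds the same protein on the next cell and is tied to the actin skeleton through catenins. Tight junctions seal the gap between cells with claudins and occludin, which are held by scaffold proteins such as ZO-1, and the JAM proteins and ESAM sit beside them and also serve passing leukocytes. In lymphatic vessels the junctions are discontinuous at the blind-ended capillaries, where fluid and cells enter, and continuous in the collecting vessels.

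The shallowest library was chronic CS F with 18821438 counts in all, and the deepest acute RA F with 56998590. A floor of 3 counts corresponded to between 0.0507 and 0.158 CPM, the count of a gene relative to the total of its library after scaling with edgeR's TMM factors, and the lowest count of any member in any library was 34, for Ocln in chronic RA M1. The lymphatic label was met by the defining markers, since Prox1 lay between 1042 and 2476 CPM and Flt4, the lymphatic VEGF receptor gene, between 1159 and 4513 CPM over the 12 libraries. The acute CS libraries stood apart from the rest, with the lowest levels of both genes. Acute CS F and acute CS M also differed from each other, with a summed level of 12 epithelial markers of 8621 CPM in F and 225 CPM in M.

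Levels of different genes were compared per length, as CPM per kilobase of exon (FPKM), in the 5 RA libraries. Cldn5, which encodes the main claudin of endothelium, was the most abundant member at 1678 ± 175 FPKM (SD, n = 5 libraries), at place 8 of 21404 genes ranked. F11r, which encodes JAM-A, followed at 425 ± 42.1 FPKM (SD, n = 5) at place 56, and Pecam1 at 158 ± 29.3 FPKM (SD, n = 5) at place 248. Cdh5, the gene of VE-cadherin, lay at 66.6 ± 15.1 FPKM (SD, n = 5) at place 745. The ranges of these genes did not touch each other, nor that of the next gene.

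Tjp1, the gene of the scaffold protein ZO-1, lay at 24.8 ± 2.94 FPKM, Esam at 20.5 ± 3.65 FPKM and Jam3, which encodes JAM-C, at 17.3 ± 3.04 FPKM (SD, n = 5 each). Neighbours in this order overlapped in their ranges, so Tjp1 was not set apart from Esam, nor Esam from Jam3. With the longest transcript in place of all exons, Esam (31.4 FPKM) and Jam3 (28.5 FPKM) came before Tjp1 (27.5 FPKM). Jam2, which encodes JAM-B, at 1.55 ± 0.555 FPKM and Ocln, the gene of occludin, at 0.912 ± 0.672 FPKM (SD, n = 5 each) were the lowest, below the range of Jam3, and overlapped with each other.

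**Figure D1:**
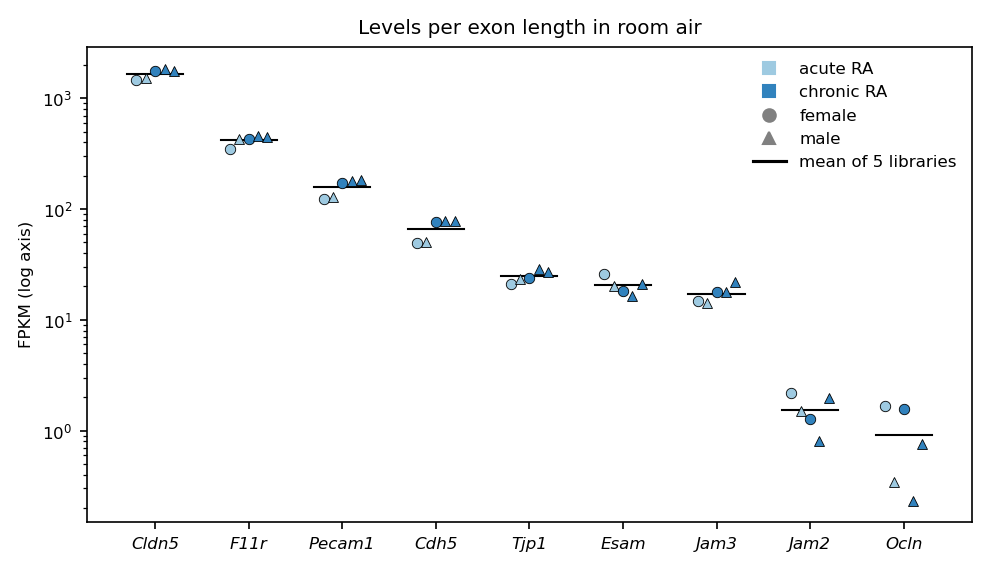
FPKM of each junction gene in the 5 room air libraries, on a log axis, ordered by the mean. Points are libraries, circles female and triangles male, in light blue for acute RA and dark blue for chronic RA, and lines are means, which fall from 1678 FPKM for Cldn5 to 0.912 FPKM for Ocln.

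RefSeq promoter windows (GRCm38.p6) were at hand for 4 of the 9 members, Cldn5, F11r, Ocln and Tjp1, and not for Cdh5, Pecam1, Jam2, Jam3 and Esam. The bases before the start are shown for the most abundant members of the claudin and the JAM family and for the least abundant member. Cldn5 lies at chr16:18776597-18776846 (plus strand), F11r at chr1:171437311-171437534 (plus strand) and Ocln at chr13:100552719-100552968 (minus strand), each read 5′ to 3′ toward the gene. Capitals mark the letters of 3 motifs searched on both strands: the GC box GGGCGG, the E-box CAGGTG and the ETS core AGGAAG, none of which overlap each other here.
Cldn5: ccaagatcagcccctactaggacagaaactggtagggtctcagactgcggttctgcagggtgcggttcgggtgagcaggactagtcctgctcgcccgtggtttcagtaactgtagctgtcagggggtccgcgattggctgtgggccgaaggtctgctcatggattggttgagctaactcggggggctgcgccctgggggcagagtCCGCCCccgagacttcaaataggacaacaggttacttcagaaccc
F11r: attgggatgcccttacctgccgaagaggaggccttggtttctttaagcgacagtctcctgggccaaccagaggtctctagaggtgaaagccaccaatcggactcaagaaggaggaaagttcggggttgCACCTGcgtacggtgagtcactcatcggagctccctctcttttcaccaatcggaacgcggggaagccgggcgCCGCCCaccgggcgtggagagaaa
Ocln: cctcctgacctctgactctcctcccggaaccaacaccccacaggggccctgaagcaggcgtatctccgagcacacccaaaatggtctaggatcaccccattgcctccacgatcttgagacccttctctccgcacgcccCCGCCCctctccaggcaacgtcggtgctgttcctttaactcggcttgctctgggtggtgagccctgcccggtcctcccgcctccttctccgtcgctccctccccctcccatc
The GC box was found in all 3 windows, and in 32.7% of all 32851 RefSeq windows of 250 bases and 29.1% of those of 224 bases, the length shown for F11r. The E-box was found in the F11r window and not in the Cldn5 and Ocln windows shown, although the window of another RefSeq start inside Ocln held it, against 17.2% of all windows of 250 bases and 15.7% of those of 224 bases. The ETS core was in none of them, against 29.5% of windows of 250 bases. A match describes these letters and is not a binding site.

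Cdh5, Jam2 and Esam were higher after acute CS than in acute RA. These were 3 of the 9 members called at an adjusted p under 0.05 by edgeR's quasi-likelihood test, where 3.47% of all genes were called in either direction and 2.75% were called higher. No member was called lower, against 0.723% of all genes. With only the 4 acute libraries in the fit, Jam2 and Esam were called, Cdh5 was not (adjusted p by edgeR = 0.203), and 144 genes were called in all, 142 of them higher. All 9 members had acute CS and acute RA ranges that did not overlap, 6 with CS higher and 3 with CS lower, and in groups of 2 libraries 49.9% of all genes did the same. At an unadjusted p under 0.05 there were 7 members, against 15.7% of all genes. Without acute CS F 2 members and 173 of all genes were called, and without acute RA F 1 member and 65 genes, where 745 genes were called with every library. Without acute RA M 0 members and 2 genes were called, and without acute CS M 5 members and 867 genes. The median log2 fold change was 0.74 over the members and 0.04 over all genes. DESeq2 called 6 members, adding Pecam1, Ocln and F11r, where it called 10.9% of the genes to which it gave an adjusted p.

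After chronic CS no member was called by edgeR, which called 0% of all genes. At an unadjusted p under 0.05 there were 8 of 9 members, all but Tjp1, against 10.9% of all genes. DESeq2 called Esam, Jam2 and Ocln higher and F11r lower, 4 of 9 members against 2.91% of the genes with an adjusted p. The chronic CS and chronic RA ranges did not overlap for 6 members, against 9.41% of all genes: Esam and Ocln lay higher, and Cdh5, Pecam1, F11r and Jam3 lay lower. The median log2 fold change was -0.26 over the members and 0.01 over all genes.

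**Figure D2:**
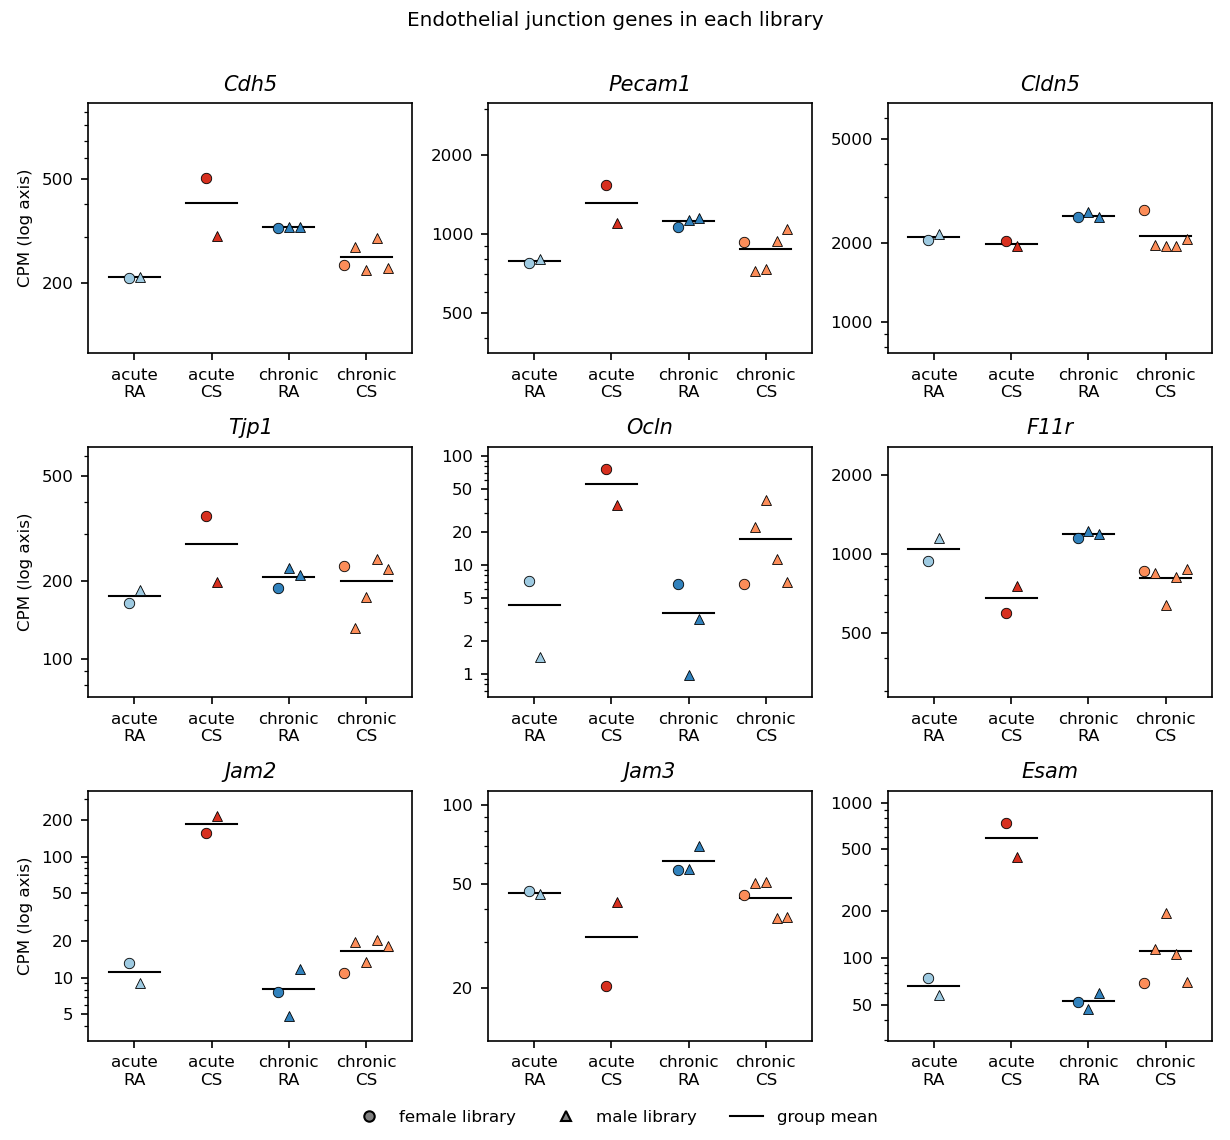
CPM of each junction gene in the 12 libraries, on log axes that differ between panels. Points are libraries, circles female and triangles male, and lines are group means. Esam and Jam2 lay far above all other libraries in acute CS, and F11r was below its room air controls at both time points.

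Markers of other cell types moved with the groups. Of 16 blood endothelial markers, 12 were called higher by edgeR after acute CS (median 2.49 on the log2 scale), against 2.75% of all genes. The summed level of the 16 was 3382 to 4105 CPM in acute RA and 8300 to 10898 CPM in acute CS. In chronic RA it was 3876 to 3923 CPM and in chronic CS 3504 to 4384 CPM, a sum of which Plvap, a gene of fenestrated endothelium, held the largest part (2743 ± 49.2 CPM in chronic RA, SD, n = 3, and 2135 ± 400 CPM in chronic CS, SD, n = 5). The other 15 markers summed to 1121 to 1212 CPM in chronic RA and 1387 to 2217 CPM in chronic CS. Without Plvap, every chronic CS library thus lay above every chronic RA library. In the acute groups these 15 markers summed to 1255 and 1052 CPM in RA (F and M) and 8179 and 5293 CPM in CS (F and M). After chronic CS no marker of this list was called by edgeR, which called 0% of all genes. Of the 16, 14 had a log2 fold change above 0 (median 0.47), against 51.3% of all genes. At an unadjusted p under 0.05 there were 5, against 10.9% of all genes. Vwf, a marker of larger blood vessels, was counted at 39.0 to 53.1 CPM in acute RA and 1074.5 to 1829 CPM in acute CS, and Gpihbp1, a marker of capillaries, at 167 to 189 and 386 to 525 CPM. Ptprb is on this list as well as among the VE-cadherin regulators described after the members.

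Of 10 lymphatic markers, 4 were called lower by edgeR after acute CS, Prox1 and Flt4 among them, against 0.723% of all genes. Of the 10, 9 had a log2 fold change below 0. Lyve1 went the other way, from 443 and 536 CPM in acute RA (F and M) to 568 and 986 CPM in acute CS (F and M). The summed level of the list fell from 16891 to 18862 CPM in acute RA to 7243 to 11261 CPM in acute CS. It was 22344 to 25254 CPM in chronic RA. In chronic CS it was 16517 CPM in M1 and 16813 CPM in M2, below chronic RA, and 23310 to 23986 CPM in F, M3 and M4. Chronic CS M1 and M2 also held the lowest Pecam1 and the highest Ocln and Esam of their group, and how these values relate was not tested. Of 12 leukocyte markers, 8 were called higher by edgeR after acute CS, against 2.75% of all genes. The list summed to 411 to 458 CPM in acute RA and 3040 to 6639 CPM in acute CS. In the chronic groups the leukocyte sum was 205 to 539 CPM in RA and 368 to 1725 CPM in CS. Of 12 mesenchymal and mural markers 6 were called higher after acute CS, against the same 2.75% of all genes. This list summed to 194 to 269 CPM in acute RA and 784 to 1109 CPM in acute CS. In the chronic groups its sum was 197 to 247 CPM in RA and 335 to 462 CPM in CS. Without acute RA M no marker of these 4 lists was called after acute CS, without acute RA F 1 of each list was, and without acute CS F 4 blood endothelial, 1 lymphatic, 4 leukocyte and 3 mesenchymal markers were. Without acute CS M these counts were 13, 7, 9 and 3, and with only the acute libraries in the fit 2, 0, 6 and 2.

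None of the 12 epithelial markers was called by edgeR after acute CS, with 1 at an unadjusted p under 0.05, against 15.7% of all genes. DESeq2 called 1 of them, as higher, where it called 10.9% of the genes with an adjusted p. After chronic CS edgeR called none either, with 7 at an unadjusted p under 0.05, against 10.9% of all genes. The epithelial sum was 246 to 507 CPM in chronic RA and 1169 to 4998 CPM in chronic CS. None of the 11 platelet markers was called by edgeR after acute CS, with 2 at an unadjusted p under 0.05, against 15.7% of all genes. DESeq2 called 2 of the 11, both higher. The sum of the 11 was 86.6 to 89.9 CPM in acute RA and 83.0 to 111 CPM in acute CS. Of these 11, 9 had a log2 fold change above 0 (median 0.97), against 53.0% of all genes. Itgb3 alone held 66.2 and 56.9 CPM in acute RA (F and M) and 38.5 and 53.1 CPM in acute CS (F and M). The sum of the other 10 was 23.7 and 29.7 CPM in acute RA and 72.6 and 29.9 CPM in acute CS. The part of platelet RNA in the level of Esam was not tested. In the chronic groups the platelet sum was 98.4 to 212 CPM in RA and 106 to 164 CPM in CS.

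No marker on these lists was at 0 in all libraries of a group, and of the defining markers Prox1, Flt4, Gpihbp1, Ptprc, Epcam, Pdgfrb and Pf4 a count of 0 occurred once, for Epcam in chronic CS F. The part of blood endothelial, leukocyte and mesenchymal RNA in the changes of Cdh5, Jam2, Esam and the VE-cadherin regulators was not tested. Nor was it tested for the chronic levels of Esam, Jam2, Ocln, Cdh5 and Pecam1.

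**Figure D3:**
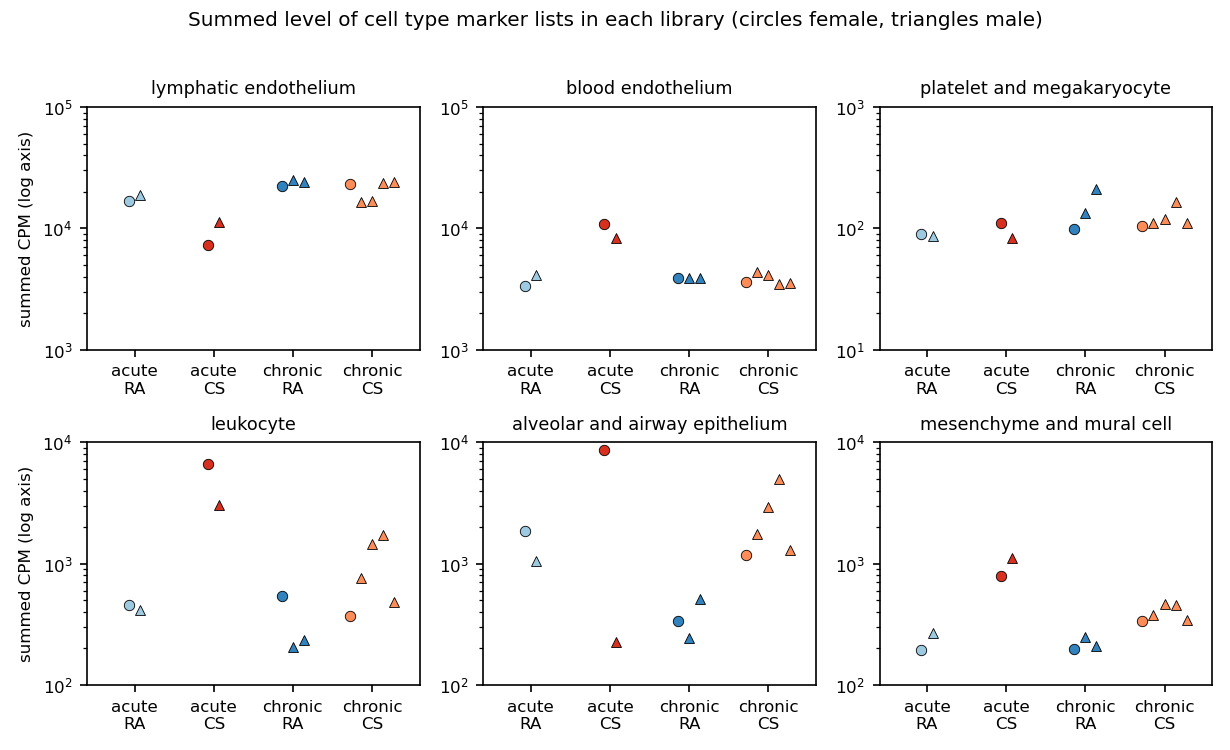
Summed CPM of the markers of 6 cell types in each library, on log axes that differ between panels. Points are libraries, circles female and triangles male. In acute CS the blood endothelial, leukocyte and mesenchymal sums lie above all other libraries, and the epithelial sum is 8621 CPM in F and 225 CPM in M.

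Cdh5 encodes VE-cadherin, the cadherin that defines the adherens junction of endothelium. The gene (ENSMUSG00000031871) lies on the plus strand at chr8:104101625-104144511 of GRCm38, where it overlaps the antisense gene Gm29682. Its level in acute RA was 209 CPM (F) and 211.5 CPM (M), and in acute CS 503 CPM (F) and 303 CPM (M). In chronic RA it was 324 CPM in F, 326 CPM in M1 and 328 CPM in M2. In chronic CS it was 234 CPM in F, 276 CPM in M1, 225 CPM in M2, 297 CPM in M3 and 229 CPM in M4.

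Both acute CS libraries were above both acute RA libraries, and all 5 chronic CS libraries were below all 3 chronic RA libraries. After acute CS, Cdh5 rose 1.91-fold, or 0.94 on the log2 scale (standard error, SE, 0.21, adjusted p by edgeR = 0.0356). Without acute CS F the value was 0.52 (adjusted p = 0.288), and without acute RA F or acute RA M it was 0.93 (0.216) and 0.89 (0.252). After chronic CS the log2 fold change was -0.37 (SE 0.15, adjusted p by edgeR = 0.425), which did not pass.

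Pecam1 encodes CD31, an immunoglobulin-type protein that binds itself across the contacts of endothelial cells and is also carried by platelets and leukocytes. The gene (ENSMUSG00000020717) lies on the minus strand at chr11:106654217-106750628. It was counted at 770.4 CPM in acute RA F, 800.1 CPM in acute RA M, and in acute CS at 1530 CPM (F) and 1094.5 CPM (M). The chronic RA libraries held 1062, 1127 and 1149.6 CPM (F, M1 and M2), and the chronic CS libraries 929, 722, 732, 941 and 1045 CPM (F, M1, M2, M3 and M4).

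The pattern of Pecam1 over the groups was that of Cdh5, higher in both acute CS libraries and lower in all 5 chronic CS libraries than in their controls. The log2 fold change was 0.74 after acute CS (SE 0.20, adjusted p by edgeR = 0.0727) and -0.35 after chronic CS (SE 0.14, adjusted p = 0.425), and neither passed. Without acute CS M the acute value was 0.96 (adjusted p = 0.0296), and without acute CS F it was 0.48 (adjusted p = 0.461). Since cells were gated on CD31 protein, cells with little of it were not sampled.

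Cldn5 encodes claudin-5, the strand-forming claudin of endothelial tight junctions. The gene (ENSMUSG00000041378) lies on the plus strand at chr16:18776847-18778262. Cldn5 stood at 2057 and 2169 CPM in acute RA (F and M) and 2031 and 1951 CPM in acute CS (F and M). In chronic RA it was 2509 CPM in F, 2631 CPM in M1 and 2512 CPM in M2, and in chronic CS 2676 CPM in F, 1970.0 CPM in M1, 1955 CPM in M2, 1951 CPM in M3 and 2073 CPM in M4.

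The 4 male chronic CS libraries were below every chronic RA library, and chronic CS F was above all 3. The fold change on the log2 scale was -0.09 after acute CS (SE 0.15, adjusted p by edgeR = 0.894) and -0.26 after chronic CS (SE 0.11, adjusted p = 0.428). Cldn5 made up between 96.5% and 99.5% of the summed FPKM of 23 claudin genes in every library. The other 22 claudins together held between 9.43 and 15.9 FPKM in the RA libraries, 52.6 FPKM in acute CS F and 34.4 FPKM in chronic CS M3, the libraries with the highest summed epithelial markers. Cldn18 is on both lists, and without it the claudin sum was 8.63 to 13.3 FPKM in the RA libraries, 29.5 FPKM in acute CS F and 25.4 FPKM in chronic CS M3.

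Ocln encodes occludin, a 4-pass membrane protein of tight junctions that is abundant in epithelia and in the blood-brain barrier. The gene (ENSMUSG00000021638) lies on the minus strand at chr13:100496507-100552718. It was counted at 7.03 CPM in acute RA F, 1.44 CPM in acute RA M, and in acute CS at 75.4 CPM (F) and 35.5 CPM (M). Chronic RA held 6.61, 0.979 and 3.19 CPM (F, M1 and M2), and chronic CS 6.72, 22.2, 39.6, 11.3 and 6.92 CPM (F, M1, M2, M3 and M4).

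Both acute CS libraries were above every RA library. All chronic CS libraries were above chronic RA, although F and M4 only narrowly so. On the log2 scale, the change was 3.71 after acute CS (SE 1.12, adjusted p by edgeR = 0.112) and 2.27 after chronic CS (SE 0.82, adjusted p = 0.382), and neither passed. With 1 library left out, the acute value ran from 2.93 without acute RA M to 5.27 without acute RA F. The summed level of the 12 epithelial markers was 1862 and 1050 CPM in acute RA (F and M) and 8621 and 225 CPM in acute CS (F and M), and the part of epithelial RNA in the level of Ocln was not tested.

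Tjp1 encodes ZO-1, the scaffold that links claudins, occludin and JAM-A to actin. The gene (ENSMUSG00000030516) lies on the minus strand at chr7:65296165-65527781 and overlaps the annotated genes Gm44792, Gm44794 and Gm44795. Tjp1 lay at 164 and 184 CPM in acute RA (F and M), 353 and 197 CPM in acute CS (F and M), and 188, 223 and 209 CPM in chronic RA (F, M1 and M2). Chronic CS held 227 CPM in F, 132 CPM in M1, 173 CPM in M2, 241 CPM in M3 and 221 CPM in M4. The acute difference lay mostly in acute CS F, and the chronic groups overlapped. The log2 fold change was 0.66 after acute CS (SE 0.30, adjusted p by edgeR = 0.314) and -0.06 after chronic CS (SE 0.22, adjusted p = 0.948).

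Esam encodes a JAM-related protein of endothelial and platelet contacts that takes part in leukocyte passage. The gene (ENSMUSG00000001946) lies on the plus strand at chr9:37528078-37538319. Esam stood at 75.1 CPM in acute RA F and 58.3 CPM in acute RA M, and in acute CS at 742 CPM (F) and 449.9 CPM (M). In chronic RA it was 52.6, 47.3 and 59.9 CPM (F, M1 and M2), and in chronic CS 69.8, 114, 196, 106 and 70.2 CPM (F, M1, M2, M3 and M4).

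Both acute CS libraries lay above all 10 others, and the 5 chronic CS libraries lay above the 3 chronic RA libraries, with chronic CS M2 the highest of them. Esam rose 8.93-fold after acute CS, or by 3.16 on the log2 scale (SE 0.47, adjusted p by edgeR = 0.0067). Without acute RA F or acute RA M the value was 3.35 and 2.94, with adjusted p of 0.0652 and 0.0993. After chronic CS the log2 fold change was 1.06 (SE 0.33, adjusted p = 0.330), which did not pass.

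Jam2 encodes JAM-B, the partner of JAM-C across endothelial contacts. The gene (ENSMUSG00000053062) lies on the plus strand at chr16:84774123-84825928 and holds the ribosomal RNA gene Gm25908. It was counted at 13.3 and 9.06 CPM in acute RA (F and M) and at 157 and 217.5 CPM in acute CS (F and M). In chronic RA it was 7.71, 4.84 and 11.9 CPM (F, M1 and M2), and in chronic CS 10.98, 19.8, 13.5, 20.4 and 18.2 CPM (F, M1, M2, M3 and M4).

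The acute CS libraries lay far above all others, and in chronic CS only F reached into the chronic RA range. Jam2 had the largest fold change of the members called, 16.7-fold after acute CS, or 4.07 on the log2 scale (SE 0.45, adjusted p by edgeR = 0.00322). Without acute RA M the value was 3.77 (adjusted p = 0.0764). After chronic CS the change was 1.02 on the log2 scale (SE 0.31, adjusted p = 0.324) and did not pass.

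F11r encodes JAM-A, which binds itself across contacts and is found on epithelium, endothelium, platelets and leukocytes. The gene (ENSMUSG00000038235) lies on the plus strand at chr1:171437535-171464603. F11r reached 938 and 1147 CPM in acute RA (F and M) and 597 and 758 CPM in acute CS (F and M). In chronic RA it was 1153, 1222 and 1196 CPM (F, M1 and M2), and in chronic CS 863, 849, 638, 821 and 879.6 CPM (F, M1, M2, M3 and M4).

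Every CS library lay below every RA library of its time point. Its log2 fold change was -0.62 after acute CS (SE 0.17, adjusted p by edgeR = 0.0828) and -0.56 after chronic CS (SE 0.12, adjusted p = 0.232). Neither passed with edgeR, while DESeq2 gave -0.62 (adjusted p = 0.00701) and -0.52 (adjusted p = 0.00613).

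Jam3 encodes JAM-C. The gene (ENSMUSG00000031990) lies on the minus strand at chr9:27097384-27155421 and overlaps the antisense gene Gm48796. It was counted at 47.1 and 45.7 CPM in acute RA (F and M), 20.4 and 42.5 CPM in acute CS (F and M), and 56.6, 56.9 and 69.9 CPM in chronic RA (F, M1 and M2). Chronic CS held 45.3, 50.4, 51.0, 36.9 and 37.6 CPM (F, M1, M2, M3 and M4). The CS libraries lay below their controls at both time points, narrowly so in acute CS M. The log2 fold change was -0.56 after acute CS (SE 0.30, adjusted p by edgeR = 0.411) and -0.47 after chronic CS (SE 0.21, adjusted p = 0.458). Without acute CS M the acute value was -1.18 (adjusted p = 0.0342), and without acute CS F it was -0.13 (adjusted p = 0.971).

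Per length, the make-up of the JAM and ESAM transcripts was another in acute CS. Of the summed FPKM of F11r, Esam, Jam2 and Jam3, F11r held 89.1% and 92.3% in acute RA (F and M) and 43.5% and 58.0% in acute CS (F and M). Esam held 6.62% and 4.36% in acute RA and 50.2% and 32.0% in acute CS, so that in acute CS F it was the most abundant of these transcripts. Jam2 held 0.555% and 0.321% in acute RA and 5.03% and 7.33% in acute CS. In chronic CS the share of F11r was between 73.5% and 89.4%, against 91.0% to 92.9% in chronic RA, and that of Esam was between 6.63% and 20.9%, against 3.34% to 4.23%. These shares are described without a test. The summed FPKM was 396 and 467 in acute RA, 515 and 491 in acute CS, between 470.2 and 494 in chronic RA and between 326 and 378 in chronic CS.

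**Figure D4:**
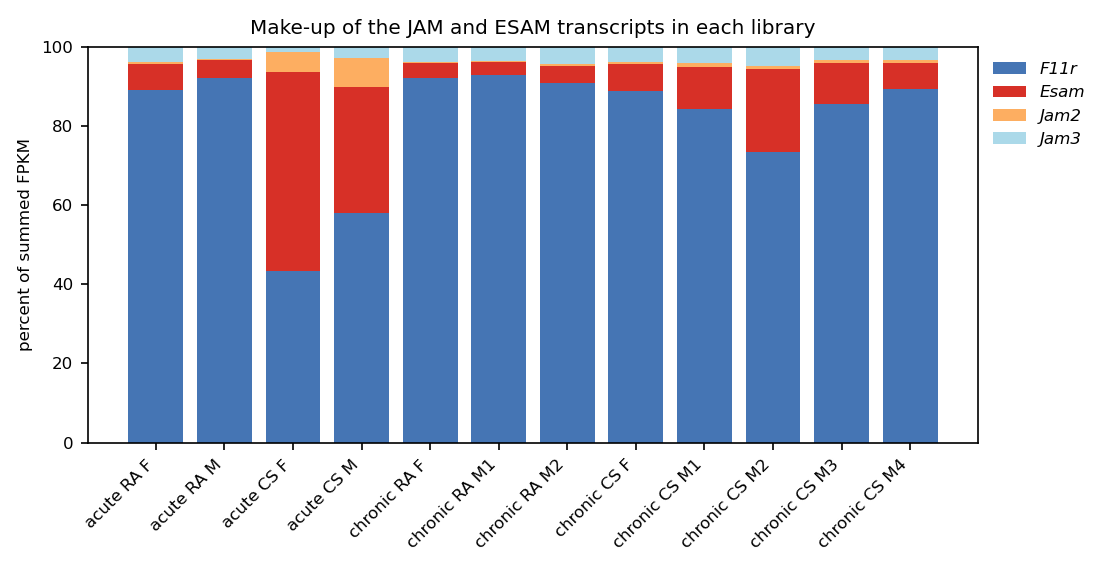
Share of each transcript in the summed FPKM of F11r, Esam, Jam2 and Jam3, in percent, as stacked bars that begin at 0, 1 bar per library. F11r fills 89.1% or more of every RA bar, while in acute CS Esam reaches 50.2% (F) and 32.0% (M).

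Chronic RA was compared with acute RA to see how the members differed between the control groups, which share their libraries with the comparisons above. No member was called by edgeR, which called 0% of all genes, and none by DESeq2, which called 1.55% of the genes with an adjusted p. At an unadjusted p under 0.05 there were 2 members, Cdh5 and Pecam1, against 7.01% of all genes. Ranges did not overlap for 6 members, all higher in chronic RA, against 34.7% of all genes. The log2 fold change was 0.63 for Cdh5 (SE 0.20, adjusted p by edgeR = 0.546) and 0.50 for Pecam1 (SE 0.18, adjusted p = 0.634). With the 5 RA libraries alone in the fit, Cdh5 had edgeR's adjusted p of 0.0464, and 57 of 21440 genes were called.

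The effects of acute and of chronic CS were also set against each other in a test of their difference. Of the members, 1 was called by edgeR, against 0.452% of all genes. This was Jam2, whose log2 fold change was larger after acute than after chronic CS by 3.04 (SE 0.51, adjusted p by edgeR = 0.0406). The call was lost when any of 10 of the 12 libraries was left out, with adjusted p between 0.0378 and 0.231 over the 12. The difference was 1.31 for Cdh5 (SE 0.26, adjusted p = 0.0617), 1.09 for Pecam1 (SE 0.25, adjusted p = 0.0890) and 2.10 for Esam (SE 0.54, adjusted p = 0.127), which did not pass. DESeq2 called 4 members, Cdh5, Pecam1, Jam2 and Esam, where it called 5.23% of the genes with an adjusted p.

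**Figure D5:**
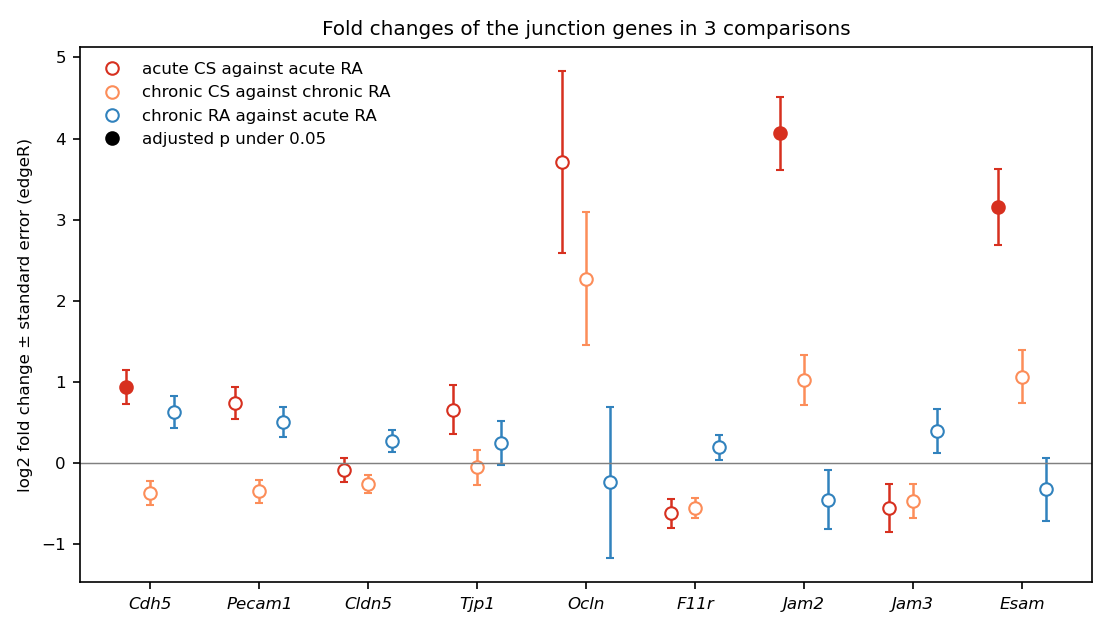
Log2 fold change with standard error of each junction gene in 3 comparisons, from edgeR. Filled points passed an adjusted p of 0.05, which held for Cdh5, Jam2 and Esam after acute CS, at 0.94, 4.07 and 3.16.

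Other genes of the junctions were taken from 5 lists. In a list of 20 adherens junction partners, 19 were tested and none was called by edgeR after acute CS (median 0.73 on the log2 scale). At an unadjusted p under 0.05 there were 8, where 15.7% of all genes were. DESeq2 called 4 of 18, where it called 10.9% of the genes with an adjusted p. Cdh1 of this list is also an epithelial marker. The most abundant per length were the catenin genes Ctnna1, Jup and Ctnnb1, whose log2 fold changes were -0.24, 0.31 and -0.35 (adjusted p by edgeR = 0.566, 0.511 and 0.262). These proteins link cadherins to actin.

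Of the 22 further claudins, 10 were tested and none was called after acute CS by edgeR, with 0 at an unadjusted p under 0.05 and 0 called by DESeq2. Of 26 tight junction scaffolds and MARVEL proteins, 15 had a log2 fold change above 0 after acute CS and 11 below. By edgeR 2 were called lower, where 0.723% of all genes were called lower. These were Magi1, a scaffold with a log2 fold change of -0.95 (adjusted p by edgeR = 0.0223), and Prkcz, a polarity kinase gene, with -0.96 (adjusted p = 0.0275). Both calls were lost without acute RA F, acute RA M or acute CS F. The most abundant was the polarity gene Pard6g, with -0.51 (adjusted p = 0.523). Of 14 JAM-like and nectin genes tested, against the same 0.723% of all genes, 1 was called lower. Nectin2, which encodes a nectin of adherens contacts, was lower by edgeR at -1.21 (adjusted p = 0.0243), a call that was lost without acute RA F or acute RA M. Icam2, an endothelial ligand of leukocyte integrins, had 0.73 (adjusted p by edgeR = 0.0753).

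Of 25 genes known to act on VE-cadherin, 5 were called higher by edgeR after acute CS and none was called lower, where 2.75% of all genes were called higher. The median log2 fold change was 0.17, with 15 of the 25 above 0 and 10 below. Ptprb, which encodes the phosphatase VE-PTP that binds VE-cadherin, rose by a log2 fold change of 1.89 and Heg1, a junctional receptor, by 1.67 (adjusted p by edgeR = 0.00824 and 0.00797). Tek, the angiopoietin receptor gene, rose by 1.06 (adjusted p = 0.0209) and Ptprj, a receptor phosphatase gene, by 3.53 (adjusted p = 0.0286). The fifth, Rapgef3, an activator of Rap1, rose by 2.46 (adjusted p = 0.0379) and is named after its value was seen. Kdr, the main VEGF receptor gene and the most abundant of the list, had -0.39 (adjusted p = 0.554). Without acute RA F 1 of the 25 was called, without acute RA M 0 and without acute CS F 2, in fits that called 65, 2 and 173 of all genes. With only the acute libraries in the fit, 0 of these 25 were called, and Magi1, Prkcz and Nectin2 were not called either. By DESeq2 after acute CS, 10.9% of the genes with an adjusted p were called. Among the lists it called 4 of 18 adherens partners, 0 of 8 claudins and 3 of 25 scaffold genes. It also called 4 of 14 JAM-like and nectin genes and 6 of 25 VE-cadherin regulators. After chronic CS no gene of these 5 lists was called by edgeR, and DESeq2 called 2.91% of the genes with an adjusted p. On the lists DESeq2 then called 1 of 18 adherens partners, 2 of 8 claudins and 1 of 25 scaffold genes. For JAM-like and nectin genes it called 0 of 14, and for VE-cadherin regulators 1 of 25.

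The genes whose log2 CPM followed a member most closely were found by Pearson's r over the 12 libraries, which share their depths and groups, so that r is given as a description. For Esam these were Pltp, Mfap2 and Anxa3 (r of 0.99 each), and 256 genes reached an r of at least 0.9. For Jam2 they were Sap30 (0.97), Vcam1 (0.97) and Entpd1 (0.96), with 155 such genes. For Ocln they were Wfdc17, Lrp1 and Camk1d (0.96 each), with 50 genes, and for F11r Fndc4, Emilin1 and Nfkbie (0.96 each), with 34 genes. The other members had few such neighbours. Cdh5 was followed by Gm15564, Trak1 and Igkv1-135, Pecam1 by Mapk3, Tapbp and P2rx1, Cldn5 by Traf2, Itm2a and Zp3, and Tjp1 by Ptp4a1, Dock5 and Gm20735, with between 4 and 11 genes at 0.9 or more.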

How the data were processed

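Gene expression was measured by bulk RNA-seq (SMART-Seq v4 and Nextera XT, which do not mark strand) in 12 libraries of sorted lung LECs. The authors checked reads with FastQC 0.11.9, trimmed them with Skewer, screened them with Minion, aligned them to GRCm38/mm10 with STAR and deposited its read count per Ensembl gene for each library, without normalization. Which annotation release and strand setting were used is not given in the sources used here. Reads of a gene and its antisense partner, as for Cdh5 and Jam3, cannot be told apart.

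Counts were joined over libraries, and symbols, positions and exon lengths were taken from GENCODE M21. Genes were filtered with filterByExpr, scaled with TMM and tested with edgeR 4.0.16 (R 4.3.3) by its quasi-likelihood F-test, all 12 libraries in 1 fit by group, with Benjamini-Hochberg adjustment over 21440 genes and a threshold of 0.05. The standard error is the log2 fold change divided by the square root of F. Log2 CPM used a prior count of 2. DESeq2 1.42.0, other scalings, no filter, a fit of the compared groups alone, a sex term, a replicate block, robust estimation, each library left out in turn and subsets of chronic CS were alternatives. The procedure was also run on simulated counts in which 200 genes were changed by known folds, with an outcome not reported here. The other genes had the same mean in every group, and all were drawn with the spread of the fit. Such counts do not show how the test behaves where pools and separate mice are mixed. No 2 libraries of a group agreed within sampling noise.

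The members and lists were chosen with earlier results of these data known, and the study names Esam as changed in these libraries. Besides the 9 members, the genes named were up to 4 called with the smallest p and up to 4 most abundant of each junction list, the defining and most abundant cell type markers, and the 3 nearest genes of each member, of which those that bear on a result are given. The nearest genes of Jam3 are not reported here. The chronic libraries came from separate mice and the acute libraries from pools, and the spread behind every p-value of the fit is shared over the 4 groups, pools and separate mice together. Floors cover counting error only.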

Additional observations from a re-analysis of the deposited data

Results flagged for a closer look

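In chronic CS, Cldn5 was 2676 CPM in F, far above the other 4 libraries, and F11r was 637.7 CPM in M2, far below the other 4. In each case the gap to the nearest library was a larger part of the group's range (0.832 and 0.756) than Dixon's critical value of 0.71 for 5 libraries. These were 2 of 9 genes examined, and chance marks about 1 group in 20.

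The log2 fold change of Jam2 was larger after acute than after chronic CS by 3.04 (edgeR's adjusted p = 0.0406). Cdh5 and Pecam1 were higher in every acute CS library and lower in every chronic CS library than in their controls. The log2 fold changes differed by 1.31 for Cdh5 and by 1.09 for Pecam1, which did not pass the test of the difference (edgeR's adjusted p = 0.0617 and 0.0890). Time point, pooling and age cannot be told apart in these differences.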

How the results depend on the processing

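After acute CS, 3 members were called, and the number was 6 with DESeq2, 1 with a replicate block and between 0 and 5 when each library was left out in turn. After chronic CS it was 0, and 4 with DESeq2. For chronic RA against acute RA it was 0, and 1 (Cdh5) with only the groups compared, a fit that called 57 of 21440 genes. For the difference of the CS effects it was 1, and 4 with DESeq2, 2 without a filter, 0 with sex as a covariate, 0 with a replicate block and between 0 and 2 when each library was left out. Without a filter, that difference was called for 191 of 32088 genes. It was called for 21 genes with the sex term and for 0 with the replicate block. Libraries of the same time point that share a label did not deviate together. Their deviations had correlations of 0.0693 in the acute groups and -0.0419, 0.0342 and 0.00601 in the chronic groups. These labels, which give sex and a number, were therefore not taken to pair the libraries. With the replicate block, Cdh5 had 0.89 (edgeR's adjusted p = 0.126), Jam2 4.07 (0.0526) and Esam 3.13 (0.0447), and 73 genes in all were called after acute CS in place of 745.

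Direction turned only for changes that were not called. For Tjp1 after chronic CS the log2 fold change was 0.023 scaled by library size, 0.16 with chronic CS M3 and M4 only, and between -0.12 and 0.061 when each library was left out (0.020 without chronic RA M1 and 0.061 without chronic CS M1). For Ocln in chronic RA against acute RA it was between -1.02 and 1.32 (1.32 without acute RA F and 0.19 without chronic RA M1). For the difference of the CS effects, F11r lay between -0.25 and 0.094 (0.017 without acute RA M and 0.094 without acute CS F), and Jam3 between -0.72 and 0.34 (0.34 without acute CS F) and at 0.16 with chronic CS M3 and M4 only. The cause was not tested. Scaling by library size moved the median log2 fold change of all genes in chronic RA against acute RA from 0.00 to -0.10. Of 9 places in the order of levels, 9 were kept with TPM and 6 with the longest transcript. The acute groups held 2 libraries each, and the lowest count of a member was 34.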
